A study of Mus musculus with 10 samples.

Results

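The renin-angiotensin system genes described here are the rows of the expression table named Ren1, Agt, Ace, Agtr1a, Agtr1b, Agtr2, Mas1, Enpep and Mme. All 9 were found, once each, among the 29868 genes of the table. Expression was measured in 10 sequenced RNA libraries, of which 5 were labelled MI+Nav and 5 MI. The MI+Nav group came from wild-type mice that received navarixin, an oral antagonist of the chemokine receptor CXCR2, after ligation of the left anterior descending coronary artery, and the MI group from wild-type mice with the same operation and no navarixin. In the general protocol of the study, navarixin was given at 1 mg/kg and the controls received saline, daily for 4 weeks, to male C57BL/6 mice that were 8 weeks old at surgery. Both groups therefore carry an infarction, and unoperated or sham-operated mice were not analysed here. The mouse behind each library and the day of sampling are not stated, so each p-value reflects only how far these libraries scatter, which may be technical. The batch in the labels is the group itself, so batch and treatment cannot be told apart.

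The renin-angiotensin system is a cascade of cleavages in the blood and in tissues. Renin, released by juxtaglomerular cells of the kidney, cuts angiotensinogen to angiotensin I, and angiotensin-converting enzyme trims this to angiotensin II, which raises blood pressure through type 1 receptors. Other peptidases shorten or redirect these peptides, and the receptors AT2 and Mas are known for actions that oppose the type 1 receptor. After an infarction, the system is a standard drug target, because angiotensin II promotes remodeling of the ventricle.

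All libraries are labelled heart, but cardiomyocyte genes were near 0 in them and nephron genes were abundant. Of 10 cardiomyocyte markers, 9 were in the table, each had a mean under 1 FPKM (fragments per kilobase of transcript, scaled to the mapped fragments of the library), and their summed level was 0.529 to 1.20 FPKM in MI+Nav and 0.585 to 0.874 FPKM in MI libraries. The 10 proximal tubule markers summed to 33729 to 51789 FPKM in MI+Nav and 30894 to 57813 FPKM in MI libraries, and Umod, the uromodulin of the thick ascending limb, lay between 215 and 663 FPKM. All statements on MI+Nav and MI hold for the libraries so labelled. The share of all FPKM from mitochondrially encoded genes was 24.4 to 45.4%, and was highest in MI+Nav 2, MI+Nav 3, MI 3 and MI 4. MI+Nav 1 also held adrenal medulla genes (summed level 11.0 FPKM, against at most 0.0839 FPKM in any other library). Urothelial markers summed to 97.4 to 102 FPKM in MI+Nav 1, MI+Nav 4 and MI+Nav 5, and to 4.51 to 18.8 FPKM in the other 7 libraries.

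The start regions of the genes are shown because Ren1 and Agt, the genes at the head of the cascade, hold the same hexamer there. The receptor gene Agtr1b holds it as well, and the membrane peptidases do not hold it on the strand of the gene. Promoters of 8 of the 9 members were found in RefSeq on GRCm38.p6, the assembly behind mm10, and Agtr1a was not among them. For Ren1 (chr1:133350424-133350673, plus strand), the 250 bases before the RefSeq start site are printed, and for the others the 60 bases before it, each 5′ to 3′ on the strand of the gene. Capitals mark the hexamer TATAAA, the core of a TATA box, where its first letter lay 40 to 20 bases before the start.
Ren1: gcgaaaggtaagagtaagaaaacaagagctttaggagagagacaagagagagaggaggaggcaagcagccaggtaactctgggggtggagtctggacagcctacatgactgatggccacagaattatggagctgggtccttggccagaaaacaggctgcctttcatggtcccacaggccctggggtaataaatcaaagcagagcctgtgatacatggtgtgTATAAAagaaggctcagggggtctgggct
Agt (chr8:124569707-124569766, minus strand): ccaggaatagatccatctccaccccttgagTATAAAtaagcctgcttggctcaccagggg
Agtr1b (chr3:20367178-20367237, minus strand): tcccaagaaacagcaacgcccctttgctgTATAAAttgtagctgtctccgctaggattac
Ace (chr11:105967888-105967947, plus strand): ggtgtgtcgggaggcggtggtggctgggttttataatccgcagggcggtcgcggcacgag
Enpep (chr3:129332750-129332809, minus strand): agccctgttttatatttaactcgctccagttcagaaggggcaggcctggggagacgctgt
The hexamer began 29 bases before the start of Ren1, 30 before that of Agt and 31 before that of Agtr1b. Across all RefSeq promoters, 1.99% held it in this window on the strand of the gene, and 0.642% held it on the opposite strand, as the printed start of Ace did. A second RefSeq start of Ace held it on neither strand. It was not found in this window at the starts of Enpep, Mas1, Agtr2 or Mme. Only this exact hexamer was searched for, so its absence does not mean that a start lacks a TATA box. A match is a description of the letters and no proof of a working site. The deposited gene model of Ren1 starts further upstream than the RefSeq start.

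Of the 9 members, 6 had at least 0.5 FPKM in at least 5 libraries and were tested together with all other genes that passed this filter, by limma on log2(FPKM + 0.5). None of the 6 passed an adjusted p under 0.05 (Benjamini-Hochberg over all 13412 genes), at any fold change. Of all tested genes, 49 passed, or 0.365% (0.35% lower and 0.0149% higher in the MI+Nav group), and 0.224% passed while differing by 1 or more on the log2 scale in either direction. At an unadjusted p under 0.05, 1 member, Ren1, was lower in the MI+Nav group, where 11.5% of all tested genes were lower and 1.25% higher. The log2 fold change was below 0 for 3 of the 6 members and for 71.7% of all tested genes, with a median of -0.06 over the members and -0.12 over all tested genes. Rescaling the libraries by median-of-ratios size factors moved the median of all genes to 0.00, so differences of about 0.1 on this scale depend on the scaling. In bulk tissue, fewer cells of a type and less RNA per cell cannot be told apart.

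Mean levels of the members can be compared because FPKM is per length. Agt averaged 22.8 FPKM over the 10 libraries, Enpep 20.9 FPKM and Ace 18.0 FPKM. Agt exceeded Enpep in 5 of 10 libraries and Enpep exceeded Ace in 7, so their order was not the same in every library. Ren1 (9.28 FPKM), Mme (8.79 FPKM) and Agtr1a (8.53 FPKM) had lower means. Ace exceeded Ren1 in all 10 libraries, but in MI 4 Ren1 (17.8 FPKM) exceeded Enpep (14.6 FPKM), and in MI 2 Agtr1a (12.9 FPKM) exceeded Agt (12.4 FPKM). Ren1 exceeded Mme in 7 libraries and Mme exceeded Agtr1a in 5. Mas1, at 0.366 FPKM, lay below Agtr1a in every library, and Agtr1b and Agtr2 lay near or at 0.

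**Figure D1:**
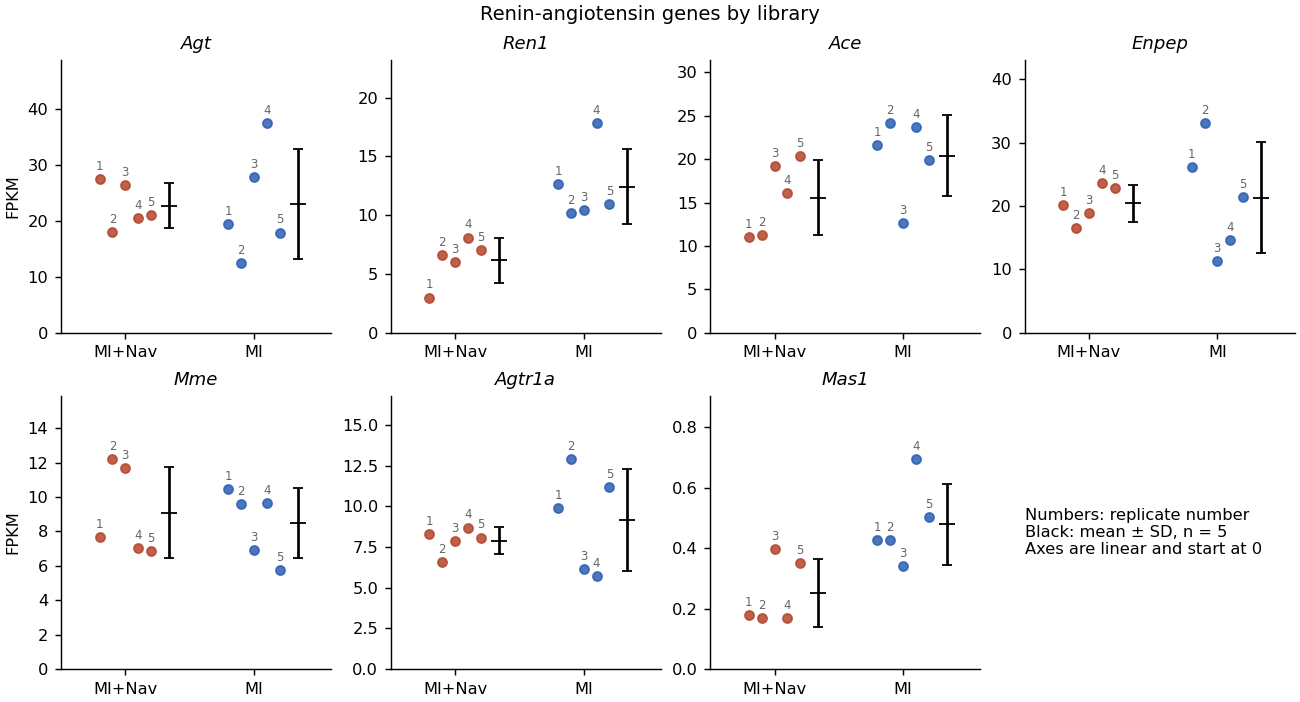
Expression in FPKM (linear axes from 0) of 7 members in the MI+Nav libraries (left, red) and the MI libraries (right, blue). Points are single libraries with their replicate number, and black marks are the mean ± SD (n = 5). Ren1 is the member whose groups do not overlap, with MI+Nav values up to 8.10 FPKM and MI values from 10.2 FPKM.

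Ren1 encodes renin, whose cleavage of angiotensinogen limits the rate of the whole cascade (chromosome 1 of mm10, 133350510 to 133360325). Its level was 3.00, 6.58, 6.05, 8.10 and 7.01 FPKM in MI+Nav 1 to 5, against 12.7, 10.2, 10.5, 17.8 and 10.9 FPKM in MI 1 to 5. The highest MI+Nav library lay below the lowest MI library, with MI+Nav 1 the lowest and MI 4 the highest of all. The mean was 6.15 ± 1.91 FPKM in the MI+Nav group and 12.4 ± 3.18 FPKM in the MI group (SD, n = 5 each), a ratio of 0.495. The log2 fold change on the FPKM + 0.5 scale was -0.99 (standard error 0.234, 95% interval -1.49 to -0.49). Ren1 ranked 127th of the 13412 genes by p (unadjusted p = 0.000914, adjusted p = 0.0966 from limma) and did not pass. Among all tested genes, 2.57% were lower and 0.268% higher without overlap between the groups (345 and 36 genes), or 2.84% in all. After rescaling by size factors the gap nearly closed, with 8.80 in MI+Nav 2 and 8.82 in MI 2 as the nearest values, and the log2 fold change was -0.85 (adjusted p = 0.175 from limma).
Ren1 was also averaged by mitochondrial share, with no test. In the libraries of high share it averaged 6.32 FPKM in MI+Nav and 14.1 FPKM in MI (2 each, of which the MI pair was at 10.5 and 17.8 FPKM), and in the others 6.04 FPKM in MI+Nav and 11.3 FPKM in MI (3 each). Its log2 fold change was -0.77 (adjusted p = 0.113 from limma) without MI+Nav 1, the library with adrenal medulla genes. It was -0.89 (unadjusted p = 0.00348, adjusted p = 0.0564 from limma) without the 3 libraries of high urothelial markers, a setting added after seeing the data. That fit kept only MI+Nav 2 and MI+Nav 3 of their group, and 604 genes passed in it.
Genes that mark renin cells and their neighbours did not all move with Ren1. Akr1b7, an aldo-keto reductase that mouse renin cells express, was at 1.29 ± 0.249 FPKM in MI+Nav and 1.04 ± 0.141 FPKM in MI libraries (SD, n = 5 each; log2 fold change 0.21, adjusted p = 0.539 from limma). The 3 renin cell markers summed to 8.69 to 12.1 FPKM in MI+Nav and 6.79 to 9.63 FPKM in MI libraries. None of them passed (1 higher at an unadjusted p under 0.05 from limma). That was Rgs5, at 6.46 ± 1.10 FPKM in MI+Nav and 4.75 ± 1.14 FPKM in MI libraries (log2 fold change 0.42, adjusted p = 0.328). Crip1 had a log2 fold change of -0.05. Of 5 tested markers of mesangial cells and pericytes, the contractile cells beside the glomerular capillaries, 2 were lower at an adjusted p under 0.05, none was higher and 3 did not pass. Those 3 did not run together: the log2 fold change was -0.74 for Des, -0.01 for Cspg4 and 0.36 for Gata3. Their adjusted p from limma was 0.383, 0.989 and 0.539. Pdgfrb, a growth factor receptor of these cells, fell to 1.10 ± 0.111 FPKM in MI+Nav libraries, against 3.08 ± 1.03 FPKM in MI libraries (log2 fold change -1.11, adjusted p = 0.0317 from limma). Itga8, the integrin of the mesangium, fell to 0.599 ± 0.120 FPKM in MI+Nav libraries, against 1.40 ± 0.278 FPKM in MI libraries (log2 fold change -0.78, adjusted p = 0.0445 from limma). The log2 fold changes kept their direction with each library left out in turn (-1.27 to -0.98 for Pdgfrb and -0.87 to -0.72 for Itga8), but the adjusted p ranged from 0.0025 to 0.106 for Pdgfrb and from 0.00688 to 0.128 for Itga8. Neither passed without MI+Nav 1, 2, 3 or 5 or without MI 1, 2, 3 or 5, and Itga8 also not without MI+Nav 4. The adjusted p was 0.0893 for Pdgfrb and 0.134 for Itga8 with the replicate block, 0.13 for both with no filter, 0.0572 and 0.0803 without the 3 libraries of high urothelial markers, and 0.0444 and 0.0855 after rescaling by size factors. The whole list summed to 4.97 to 8.20 FPKM in MI+Nav and 7.04 to 12.5 FPKM in MI libraries, and none of its genes was at 0.
Podocyte markers summed to 7.68 to 22.5 FPKM in MI+Nav and 19.5 to 32.5 FPKM in MI libraries, and none of the 5 passed (3 had an unadjusted p under 0.05 from limma, all lower). The lowest sum was that of MI+Nav 1, where Ren1 was also lowest. The 7 endothelial markers, none at 0, summed to 8.08 to 18.4 FPKM in MI+Nav and 12.4 to 33.3 FPKM in MI libraries, and none passed, though all 7 were lower at an unadjusted p under 0.05. Leukocyte markers summed to 5.06 to 8.17 FPKM in MI+Nav and 9.60 to 12.8 FPKM in MI libraries. Smooth muscle markers, of the cell type in the vessel wall beside renin cells, summed to 17.6 to 75.9 FPKM in MI+Nav and 17.2 to 34.6 FPKM in MI libraries, and none of the 4 tested passed (2 higher and 1 lower with an unadjusted p under 0.05 from limma). Acta2, smooth muscle actin, was at 6.13 to 33.0 FPKM in MI+Nav and 4.18 to 7.37 FPKM in MI libraries (log2 fold change 1.32, adjusted p = 0.161 from limma). Myh11, smooth muscle myosin, was at 1.18 to 4.80 FPKM in MI+Nav and 0.469 to 0.933 FPKM in MI libraries, without overlap (log2 fold change 1.18, adjusted p = 0.0703 from limma). Acta2 was highest in MI+Nav 1, MI+Nav 4 and MI+Nav 5, the libraries of high urothelial markers. The part of cell makeup in the Ren1 values was not tested.
Within each library, the ratio of Ren1 to Akr1b7 was 4.78 ± 1.59 in MI+Nav and 11.9 ± 2.28 in MI libraries (SD, n = 5 each), without overlap. Ren1 alone already had no overlap, so this ratio carries the difference of Ren1 and is no separate result about Ren1 per renin cell. The ratio of Ren1 to Pdgfrb ran from 2.72 to 7.68 in MI+Nav and from 2.39 to 10.3 in MI libraries, and the groups overlapped. These are 2 of 8 ratios computed after the values were seen, and no test was made of them.

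**Figure D2:**
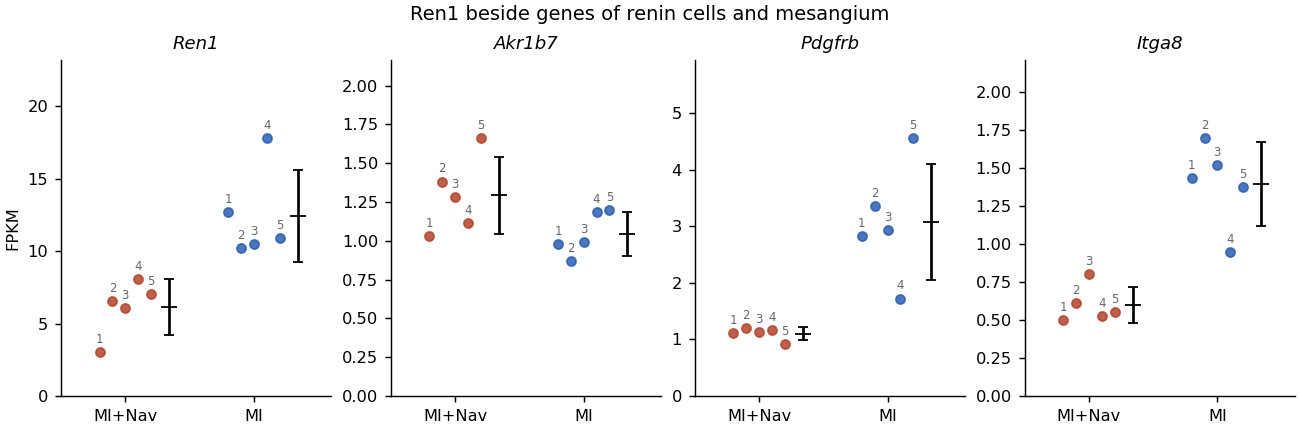
FPKM (linear axes from 0) of Ren1, the renin cell gene Akr1b7 and the mesangial genes Pdgfrb and Itga8, with MI+Nav libraries on the left (red) and MI libraries on the right (blue). Points carry the replicate number, and black marks are the mean ± SD (n = 5). Pdgfrb and Itga8, the 2 of 5 tested mesangial and pericyte markers that passed, are lower in the MI+Nav libraries, as Ren1 is. Akr1b7 overlaps between the groups.

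Agt encodes angiotensinogen, the only known substrate of renin (chromosome 8, 124556534 to 124569706). Its level was 27.4, 18.0, 26.3, 20.5 and 21.1 FPKM in MI+Nav 1 to 5, against 19.5, 12.4, 27.9, 37.4 and 17.9 FPKM in MI 1 to 5. The MI libraries held both the lowest and the highest value, so the MI+Nav range lay inside the MI range. The means were 22.7 ± 4.01 FPKM in MI+Nav and 23.0 ± 9.78 FPKM in MI (SD, n = 5 each), with a log2 fold change of 0.06 (95% interval -0.48 to 0.60, adjusted p = 0.947 from limma). The highest MI values were those of MI 3 and MI 4, which have a high mitochondrial share. Taken by share, Agt averaged 22.2 FPKM in MI+Nav and 32.7 FPKM in MI among libraries of high share, and 23.0 FPKM in MI+Nav and 16.6 FPKM in MI among the others, so the difference changed direction between the 2 classes. Liver is the main source of circulating angiotensinogen, while the liver gene Alb, albumin, was at 1.72 to 2.83 FPKM in every MI+Nav library and 1.79 to 2.78 FPKM in every MI library. The 5 hepatocyte markers summed to 57.2 to 86.0 FPKM in MI+Nav and 43.8 to 84.6 FPKM in MI libraries, most of it from Ttr, the thyroxine carrier, and the part of liver RNA in the Agt values was not tested. Within each library, the ratio of Ren1 to Agt was 0.286 ± 0.117 in MI+Nav and 0.586 ± 0.170 in MI libraries (SD, n = 5 each), and the groups overlapped.

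Ace encodes the enzyme that makes angiotensin II and also breaks down bradykinin (chromosome 11, 105967945 to 105989964). Its level was 11.0, 11.2, 19.3, 16.1 and 20.3 FPKM in MI+Nav 1 to 5, against 21.6, 24.2, 12.6, 23.7 and 19.9 FPKM in MI 1 to 5. The groups overlapped, since MI 3 was low and MI+Nav 3 and MI+Nav 5 were close to the MI libraries. The means were 15.6 ± 4.36 FPKM in MI+Nav and 20.4 ± 4.68 FPKM in MI (SD, n = 5 each), with a log2 fold change of -0.39 (95% interval -0.86 to 0.08, adjusted p = 0.473 from limma). The antisense gene Gm11651, which overlaps Ace, did not exceed 0.154 FPKM.

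Enpep encodes aminopeptidase A, which takes the first residue from angiotensin II and sits on the brush border of the proximal tubule and on podocytes (chromosome 3, 129269175 to 129332720). Its level was 20.2, 16.5, 19.0, 23.6 and 22.8 FPKM in MI+Nav 1 to 5, against 26.2, 33.1, 11.4, 14.6 and 21.5 FPKM in MI 1 to 5. As for Agt, the MI+Nav range lay inside the MI range. The means were 20.4 ± 2.90 FPKM in MI+Nav and 21.4 ± 8.76 FPKM in MI (SD, n = 5 each), with a log2 fold change of 0.02 (95% interval -0.51 to 0.56, adjusted p = 0.978 from limma). Agtr1a encodes the main angiotensin II receptor of rodents (chromosome 13, 30336441 to 30382867). It was at 8.27, 6.56, 7.88, 8.70 and 8.08 FPKM in MI+Nav 1 to 5, against 9.90, 12.9, 6.12, 5.72 and 11.2 FPKM in MI 1 to 5. Its log2 fold change was -0.14 (95% interval -0.59 to 0.31, adjusted p = 0.811 from limma). The sense intronic gene Gm48161, which overlaps Agtr1a on the same strand, lay between 0.258 and 0.931 FPKM.
Enpep and Agtr1a shared a profile over the libraries. Both were lowest in the 2 libraries of high mitochondrial share of each group, without overlap with the other 3 of that group, and 24.5% of all tested genes showed this as well. Among libraries of high share Enpep averaged 17.7 FPKM in MI+Nav and 13.0 FPKM in MI, and among the others 22.2 FPKM in MI+Nav and 26.9 FPKM in MI. Agtr1a averaged 7.22 FPKM in MI+Nav and 5.92 FPKM in MI among libraries of high share, and 8.35 FPKM in MI+Nav and 11.3 FPKM in MI among the others. The difference between the groups thus changed direction with the share for both genes, as it did for 4 of the 6 tested members (Agt, Enpep, Agtr1a and Mme) and 46.1% of all tested genes. Without the 4 libraries of high share the log2 fold change was -0.25 for Enpep (adjusted p = 0.404 from limma), -0.41 for Agtr1a (adjusted p = 0.129) and 0.47 for Agt (adjusted p = 0.213).
Enpep stood in a near constant ratio to Lrp2, the megalin of the same brush border, which is a protein uptake receptor. The ratio of Enpep to Lrp2 was 0.296 ± 0.0153 in MI+Nav and 0.296 ± 0.0259 in MI libraries (SD, n = 5 each). Over the 10 libraries its coefficient of variation (SD divided by the mean) was 6.77%, against 29.5% for Enpep itself. Lrp2 is 1 of the 10 proximal tubule markers, and the others did not all run with Enpep. Enpep was at 33.1, 11.4 and 14.6 FPKM in MI 2, MI 3 and MI 4. There Cubn was at 19.5, 9.29 and 13.5 FPKM, but Kap at 28950, 53082 and 56466 FPKM. How many genes hold as steady a ratio to Enpep was not counted. The ratio of Agtr1a to the mesangial gene Pdgfrb was 7.25 ± 1.20 in MI+Nav and 3.04 ± 0.741 in MI libraries, without overlap. Pdgfrb alone already had no overlap (at most 1.19 FPKM in MI+Nav and at least 1.72 FPKM in MI libraries). This ratio therefore carries the difference of Pdgfrb and is no result about Agtr1a. No test was made of these ratios.

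**Figure D3:**
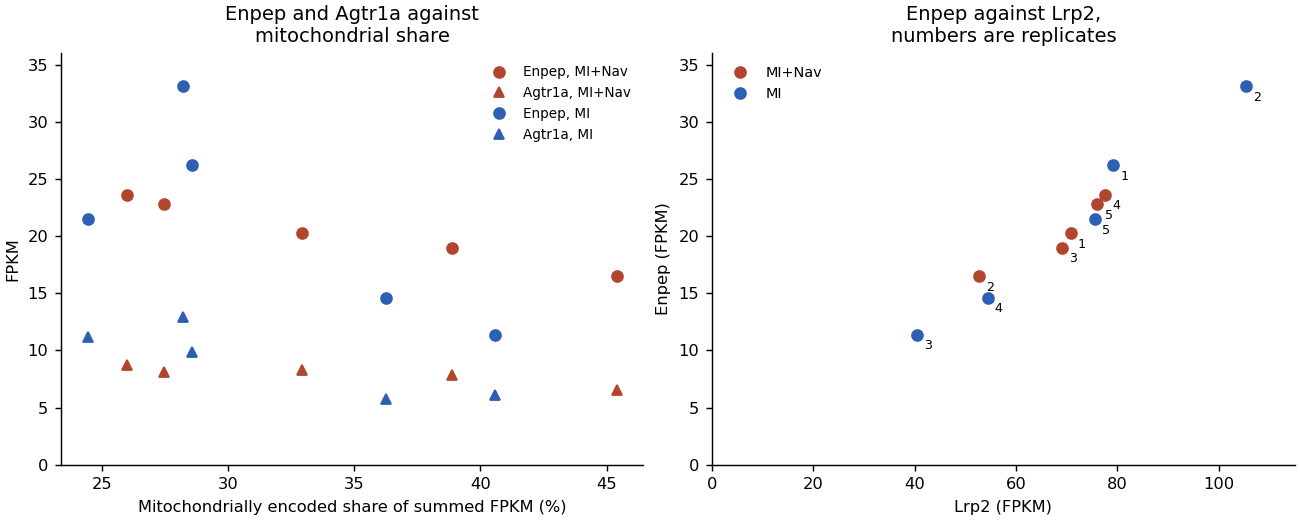
Left, Enpep (circles) and Agtr1a (triangles) in FPKM against the share of summed FPKM from mitochondrially encoded genes in percent, for MI+Nav (red) and MI (blue) libraries. Right, Enpep against Lrp2, both in FPKM, with replicate numbers. Both genes are lowest in the libraries of high share, and Enpep follows Lrp2 at a ratio near 0.296 in both groups.

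Mme encodes neprilysin, a brush border peptidase that cuts angiotensin I, natriuretic peptides and other peptides (chromosome 3, 63241537 to 63381623). Its level was 7.70, 12.2, 11.7, 7.06 and 6.84 FPKM in MI+Nav 1 to 5, against 10.4, 9.62, 6.93, 9.66 and 5.76 FPKM in MI 1 to 5. In the MI+Nav group, MI+Nav 2 and MI+Nav 3 stood above the other 3, and these 2 have a high mitochondrial share and few urothelial transcripts. The MI libraries showed no such step, with MI 5 lowest and MI 1 highest, both of lower mitochondrial share. The means were 9.10 ± 2.62 FPKM in MI+Nav and 8.48 ± 2.02 FPKM in MI (SD, n = 5 each), with a log2 fold change of 0.09 (95% interval -0.37 to 0.54, adjusted p = 0.898 from limma). The part of urothelial or mitochondrial RNA in the Mme values was not tested.

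Mas1, Agtr1b and Agtr2 were below the filter. Mas1 encodes the Mas receptor, which binds a shortened angiotensin (chromosome 17, 12841079 to 12868143). It was at 0.177, 0.167, 0.399, 0.169 and 0.35 FPKM in MI+Nav 1 to 5, against 0.427, 0.426, 0.341, 0.695 and 0.504 FPKM in MI 1 to 5. MI 3 was the MI library that lay within the MI+Nav range. The means were 0.252 ± 0.113 FPKM in MI+Nav and 0.479 ± 0.134 FPKM in MI (SD, n = 5 each). An exact two-sided permutation test of mean log2(FPKM + 0.5) gave p = 0.0238, not adjusted over genes, and p = 0.0556 after rescaling by size factors. When all genes were tested with no filter, the adjusted p of limma was 0.431. These values rest on an estimated 7 to 19 fragments per MI+Nav library and 15 to 31 per MI library. The antisense gene Airn, which overlaps Mas1, reached 2.68 FPKM (means 1.92 FPKM in MI+Nav and 2.13 FPKM in MI libraries). The paper describes libraries whose second cDNA strand was labelled with dUTP and then treated with the enzyme UDG, a design that keeps the strand. Whether expression was estimated by strand is not stated in the sources used here, so Mas1 is uncertain.
Agtr1b encodes the second type 1 receptor of rodents, known in mouse from the adrenal gland (chromosome 3, 20314473 to 20367177). It was listed at 0 in all 5 MI+Nav libraries and in 3 MI libraries, and at 0.0249 and 0.0254 FPKM in MI 2 and MI 3, an estimated 1 fragment each. It was listed at 0 also in MI+Nav 1, the library with adrenal medulla genes. In that library the adrenal cortex genes Cyp11a1, Cyp21a1 and Mc2r were at 0.0379, 0 and 0 FPKM, and Star at 0.812 FPKM. The value of Agtr1b there is therefore no result about adrenal cortex. Agtr2 encodes the AT2 receptor, best known from fetal tissue (chromosome X, 21484544 to 21489164). It was listed at 0 in 9 of 10 libraries and at 0.0258 FPKM in MI 3. Reads of Agtr1b could also be assigned to Agtr1a, its close paralog. A difference between the groups was not detectable for either gene at this depth (exact two-sided permutation test, p = 0.444 for Agtr1b and p = 1 for Agtr2). The TATAAA hexamer at the start of Agtr1b thus stood beside a gene at or near 0, and that of Agt beside the member of highest mean.

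Spread differed among the members as well as level. Over the 10 libraries, the coefficient of variation was 44.5% for Ren1, 30.8% for Agt, 29.5% for Enpep, 27.6% for Ace, 26.6% for Agtr1a and 25.4% for Mme. Each was above the median of tested genes of similar mean (within 2-fold), which was 19.0 to 20.7%. Ren1 stood at the 95.2nd percentile among such genes, which includes the difference between its groups, and Mme at the 72.3rd. Within groups, Agtr1a varied by 10.2% in MI+Nav and 34.4% in MI libraries, Enpep by 14.2% in MI+Nav and 41.0% in MI, and Agt by 17.7% in MI+Nav and 42.5% in MI. In these 3 genes the MI coefficient was at least 2 times that of MI+Nav, which held for 13.8% of all tested genes. Ren1, Ace and Mme had the larger coefficient in the MI+Nav group. Over all tested genes, the median coefficient was 21.5% in MI+Nav and 22.1% in MI libraries. No test of the difference in spread was made.

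For each tested member, the 2 genes of most similar profile over the 10 libraries were taken from all tested genes. Likeness was the mean absolute difference of log2 values after each gene was scaled to a mean of 0 and an SD of 1, where 0 is the same profile. The nearest to Ren1 were Dusp18 (0.316 SD) and Leo1 (0.318 SD), against a median of 0.988 SD over all genes. Enpep had the closest partners of any member, Thap12 (0.104 SD) and Mob1a (0.106 SD). Those of Agtr1a were Tbc1d1 (0.170 SD) and Tbck (0.186 SD), those of Ace were Chst11 (0.201 SD) and Pzp (0.238 SD), those of Agt were Napsa (0.262 SD) and Gdpd3 (0.336 SD), and those of Mme were Slc10a2 (0.391 SD) and Zfp677 (0.411 SD). Among the members themselves, Enpep and Agtr1a were the closest pair (0.341 SD) and Agt and Enpep the most distant (1.39 SD).

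Of a list of 20 other peptidases and partners of the pathway, 16 were in the table and 13 were tested, of which none was higher or lower at an adjusted p under 0.05 from limma (none at an unadjusted p under 0.05 either). Their median log2 fold change was -0.06, with 8 below and 5 above 0, and the extremes were -0.34 for Rnpep, aminopeptidase B, and 0.33 for Atp6ap2, the (pro)renin receptor. Klk1, tissue kallikrein, was the most abundant (935 ± 154 FPKM in MI+Nav and 824 ± 198 FPKM in MI libraries, SD, n = 5 each), followed by Ctsb, cathepsin B (83.9 ± 14.7 FPKM in MI+Nav and 87.5 ± 17.1 FPKM in MI). The chymase Cma1 and the mast cell carboxypeptidase Cpa3, which make or trim angiotensin outside the classical pathway, did not exceed 0.148 FPKM.
Of 10 partners of the angiotensin receptors, none passed (unadjusted p under 0.05 from limma for 4, with 3 lower and 1 higher). Their median log2 fold change was -0.17. The higher one was Rgs5, which is also 1 of the 3 renin cell markers above, so both counts hold the same gene. Arrb1, the β-arrestin that uncouples such receptors, was at 1.69 ± 0.235 FPKM in MI+Nav and 2.79 ± 0.325 FPKM in MI libraries without overlap (log2 fold change -0.59, adjusted p = 0.0891 from limma). Agtrap, a protein that promotes internalization of the type 1 receptor, was the most abundant (16.7 ± 2.92 FPKM in MI+Nav and 17.9 ± 3.00 FPKM in MI), with a log2 fold change of -0.09.
Of 10 tested regulators of renin cells and renin release, out of 18 listed, none passed (2 lower and none higher at an unadjusted p under 0.05 from limma). Their median was -0.23. Npr1, the natriuretic peptide receptor through which renin release is restrained, was at 1.20 ± 0.599 FPKM in MI+Nav and 2.93 ± 0.612 FPKM in MI libraries (log2 fold change -1.06, adjusted p = 0.0606 from limma). Ptgs2, the cyclooxygenase of the macula densa that stimulates renin, was at 0.745 ± 0.231 FPKM in MI+Nav and 0.857 ± 0.190 FPKM in MI libraries (adjusted p = 0.780). Gnas, the stimulatory G protein behind cyclic AMP in renin cells, was the most abundant (37.2 ± 4.61 FPKM in MI+Nav and 44.1 ± 8.23 FPKM in MI, log2 fold change -0.23).

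**Figure D4:**
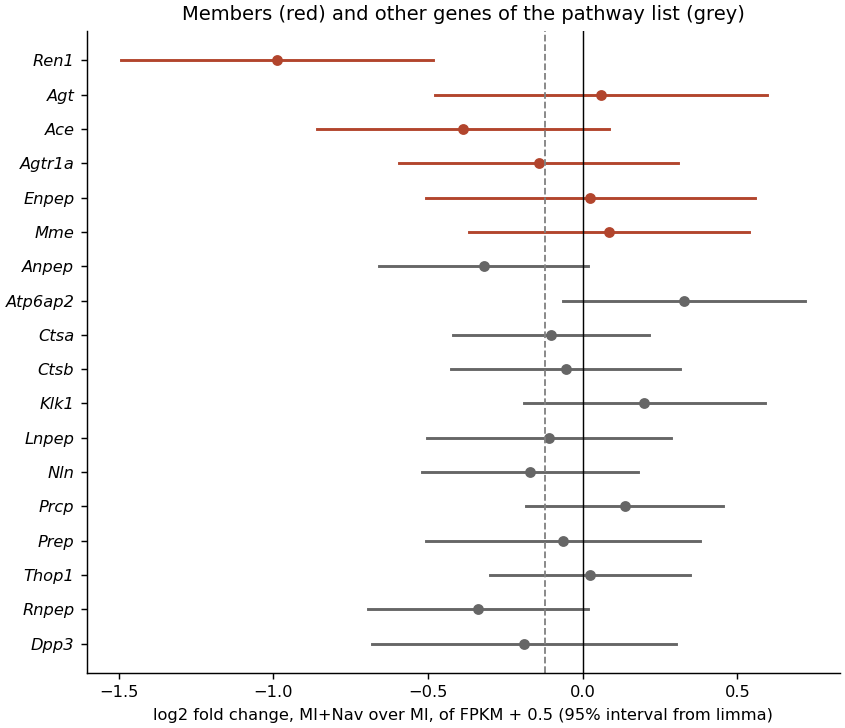
Log2 fold change of FPKM + 0.5, MI+Nav over MI, with 95% intervals from limma, for the 6 tested members (red) and other tested genes of the pathway (grey). The solid line is 0 and the dashed line the median of all tested genes (-0.12). The interval of Ren1 lies below 0, from -1.49 to -0.49, without adjustment over genes, and those of the other members span 0.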

How the data were processed

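RNA was sequenced in 10 mouse libraries, whose labels give the group and the replicate number. The authors deposited FPKM values for 29868 genes, 1 column per library and no counts. The submitters' processing notes name cutadapt 1.9, HISAT2 2.0.4 with mm10, and StringTie 1.3.4d. The sources used here do not name an annotation release. The authors named DESeq2 and edgeR, which need counts, so limma 3.58.1 in R 4.3.3 was used on log2(FPKM + 0.5), with a trended, robust prior and no covariate. The filter kept genes that reached 0.5 FPKM in 5 or more libraries. Fold changes on this scale understate those of low genes. Depth, estimated from the smallest steps of single-transcript genes, was 16720000 to 20520000 fragments per library, and estimated fragments carry counting error. The fit was tested on simulated data, in 5 draws with 200 of the more highly expressed genes changed by 1 on the log2 scale. It recovered 72.6% of them on average, with 7.2 false calls per draw. The noise was independent between genes, without the shared shifts in mitochondrial or urothelial RNA of the real libraries.

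The members, lists and tests were chosen with earlier results of these data known. The text names the 9 members, the most abundant genes and those past the test in each pathway list, markers, and the 2 genes of nearest profile. Arrb1, Myh11, Npr1, Ptgs2, Rnpep, the chymase and the carboxypeptidase were singled out after their values were seen. So were the kinin receptors, Kng2, Klkb1, Scnn1a, Scnn1b, Scnn1g, Sgk1 and the ratios. Alternatives covered pseudocounts, filters, scaling, priors, weights, a covariate, a replicate block and libraries left out. Some genes of the lists are counted but not reported here. Figures were drawn with matplotlib 3.10.9.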

Additional observations from a re-analysis of the deposited data

Results flagged for a closer look

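Among 48 sets of 5 libraries examined (members and marker sums by group), 2 had a library far from the other 4, and chance alone marks about 1 set in 20. Agtr2 in MI 3, at 0.0258 FPKM, stood apart from 4 libraries listed at 0, and the value rests on an estimated 1 to 2 fragments. Beside 4 values of 0 any value above 0 is marked, so the rate of 1 in 20 does not apply to this set. The sum of the adrenal medulla markers in MI+Nav 1, at 11.0 FPKM, stood apart from the other MI+Nav libraries, which did not exceed 0.0537 FPKM. Ren1 was lowest in that library (3.00 FPKM).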

How the results depend on the processing

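None of the 6 tested members passed in any of the 22 alternatives, with the lowest adjusted p that of Ren1 under array weights (0.0522). There its unadjusted p from limma was 0.0015, against 0.000914 in the main fit, while 378 genes passed in all, against 49. The lower adjusted p thus goes with more genes called and not with a lower unadjusted p. Ren1 stayed below 0 in all 22 (-1.10 to -0.77, adjusted p between 0.0522 and 0.283), as did Ace (-0.55 to -0.25) and Agtr1a (-0.41 to -0.0045). Under both scalings 1 tested member, Ren1, had no overlap, but by size factors its highest MI+Nav value was 8.80 and its lowest MI value 8.82. Agt, Enpep and Mme changed sign under some settings, without passing. Agt was -0.0022 with mitochondrial share as covariate and -0.13 to 0.26 with single libraries left out. Enpep was -0.014 after rescaling without mitochondrially encoded genes, -0.15 with array weights, -0.25 without the 4 libraries of high mitochondrial share, -0.17 without the 3 of high urothelial markers and -0.17 to 0.20 with single libraries left out. Mme was -0.21 with array weights, -0.20 without the 4 libraries of high mitochondrial share and -0.036 to 0.17 with single libraries left out. The cause was not tested.
Replicate numbers did not pair the libraries: deviations of same-numbered libraries correlated at -0.22 to 0.05, and 1 of 5 MI+Nav libraries was most like its own number. With the replicate block the adjusted p of Ren1 was 0.136, no member passed, and 6 genes passed in all, against 49. Depth limits Mas1, Agtr1b and Agtr2.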

Other observations

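The kinin system, which shares its peptidases with the renin-angiotensin system, was present mainly through its enzymes and precursor. Kng2, a kininogen, was at 45.9 ± 4.32 FPKM in MI+Nav and 53.3 ± 13.0 FPKM in MI libraries (SD, n = 5 each), while the bradykinin receptors Bdkrb1 and Bdkrb2 had means of at most 0.166 FPKM in either group. Of 4 tested genes of 7, none passed in limma (none at an unadjusted p under 0.05), and the median log2 fold change was 0.21. Klkb1, plasma prekallikrein, had the largest value (0.25, adjusted p = 0.449).
Of 7 tested genes of the mineralocorticoid response, which aldosterone drives at the end of the cascade, none passed in limma and 1 was lower at an unadjusted p under 0.05. This was Scnn1a, a subunit of the epithelial sodium channel (7.20 ± 1.23 FPKM in MI+Nav and 9.73 ± 0.973 FPKM in MI libraries, log2 fold change -0.42, adjusted p = 0.248). The other subunits in the list did not run with it, at a log2 fold change of 0.06 for Scnn1b and 0.28 for Scnn1g. Of the 7 genes, 3 were below and 4 above 0, with a median of 0.03. Hsd11b2, which protects the mineralocorticoid receptor from glucocorticoids, was the most abundant (47.1 ± 9.83 FPKM in MI+Nav and 37.6 ± 4.02 FPKM in MI). Sgk1, a kinase induced by aldosterone, ranged from 4.45 to 21.5 FPKM in MI+Nav and from 9.82 to 16.3 FPKM in MI libraries.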
